A study of Mus musculus with 24 samples.

Results

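Immediate-early genes are switched on within minutes of a growth signal, without new protein synthesis. The 5 described here are Fos, Jun and Junb, which encode subunits of the AP-1 transcription factor, Egr1, which encodes a zinc-finger transcription factor, and Ier2, which encodes a small nuclear protein. They were chosen by name: every row of 6 deposited peak lists that overlapped a fixed window of 10 to 14 kb around 1 of the genes (mouse build mm10) was taken, whatever its values. The 5 genes are 5 of the 21887 protein-coding genes of the RefSeq annotation, and 62 rows overlapped their windows, between 8 and 12 of the 137102 to 462153 rows of a list.

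The lists come from chromatin immunoprecipitation with sequencing (ChIP-seq), in which DNA bound to a protein is pulled down with an antibody and sequenced. The cells were E14, a mouse embryonic stem cell line, grown with serum and the cytokine LIF. All 6 libraries carry the genotype label "Nelfb deg" and the treatment label "Control". For each antibody there were 2 libraries, made with antibodies to the HA tag (titled NELFB:HA), to NELFE or to SPT5. The other 18 of the 24 samples, among them cells given 500 nM dTAG-13 for 30 min, were not analysed here, so every comparison is between antibodies in control cells that all carry this genotype.

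RNA polymerase II often stops shortly after it starts a gene and waits there, a step called promoter-proximal pausing. NELF, the complex that holds NELFB and NELFE, and DSIF, which holds SPT5, bind the paused polymerase. When the kinase P-TEFb acts, NELF leaves, and SPT5 travels on with the polymerase through the gene. Fos, Jun, Junb and Egr1 are textbook cases of genes held by pausing and released by serum or growth factors, and serum was in the medium of these cells.

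The 6 libraries held 27324697 to 62312558 filtered tags, and 6978 to 11770 rows of a list had a q of 0.01 or less. The headers of the lists state that q would not be calculated, while the lists hold a q column, which is used as deposited. The SPT5 libraries were read with longer tags (100 or 101 bp against 50 bp) and share 1 input. In any comparison with SPT5, antibody cannot be told apart from tag length, input and any sequencing batch that goes with them. No SPT5 value exists at the tag length of the NELF libraries. Nothing in the labels says that the 2 libraries of an antibody came from separate cultures; p-values then measure the spread between these libraries, which may be technical. As a check of the cell type, 6 of 7 markers of pluripotent cells (all but Nanog) had a region at this q within 4 kb of the gene in all 6 lists, against 0 of 4 markers of primitive endoderm and 0 of 5 of fibroblasts. These regions show binding and not transcript levels.

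The promoters of the AP-1 genes are shown because all 6 lists placed their strongest region of the window over them. The RefSeq promoter table (GRCm38.p6, the patch release of the mm10 assembly) held 3 of the 5 genes. The lines give the 150 bases before each gene's start, 5′ to 3′ on the gene's own strand. Capitals mark matches on either strand to the core of the cAMP response element (CRE core, TGACG), the GC box (GGGCGG), the TATA box (TATAAA) or the CCAAT box (CCAAT).
Fos, plus strand, chr12:85473740-85473889: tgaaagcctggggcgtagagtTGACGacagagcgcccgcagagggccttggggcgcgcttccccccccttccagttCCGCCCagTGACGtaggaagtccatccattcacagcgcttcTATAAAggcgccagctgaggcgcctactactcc
Jun, minus strand, chr4:95052223-95052372: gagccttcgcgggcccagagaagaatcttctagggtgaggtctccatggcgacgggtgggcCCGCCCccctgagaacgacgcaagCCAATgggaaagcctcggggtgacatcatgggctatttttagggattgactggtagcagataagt
Junb, minus strand, chr8:84978749-84978898: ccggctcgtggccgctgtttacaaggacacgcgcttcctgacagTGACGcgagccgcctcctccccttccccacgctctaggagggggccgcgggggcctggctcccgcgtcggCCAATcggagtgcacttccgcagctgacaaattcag

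Counted from the gene start, the Fos promoter held the CRE core at -129 and -66, the GC box at -74 and the TATA box at -33. The Jun promoter held the GC box at -89 and the CCAAT box at -65, and the Junb promoter held the CRE core at -106 and the CCAAT box at -36. Of all 32851 promoters in the table, searched over 250 bases on both strands, 17.8% held the CRE core, 32.7% the GC box, 12.4% the TATA box and 33.8% the CCAAT box. None of the 3 promoters held a match to the CArG box, which serum response factor binds (1.47% of all promoters), the full CRE TGACGTCA, which contains the CRE core (1.55%), the EGR site GCGTGGGCG (0.536%) or the AP-1 sites TGAGTCA and TGACTCA (4.46%). A missing match says only that these letters are not in the 250 bases searched. A match is a description of letters and not a bound site.

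All 5 genes had a strong region in every list. The lead region of a gene is the row of its window with the highest pileup, the deposited measure of fragment coverage. In these broad lists pileup and fold enrichment are values for a whole row, not heights at a position, so row length may enter them. All 30 lead regions, 5 genes in 6 lists, had a q of 0.01 or less, and all 30 also had a q of 1e-05 or less. Among protein-coding genes taken with 4 kb on either side, 32.5% had a lead region at a q of 0.01 or less in all 6 lists. Among the 5 windows and all other merged regions of the lists, 5864 had such a lead region in all 6 lists. At a q of 1e-05 or less 3087 did. Of the other 32 rows in the windows, 27 were weak, with a fold enrichment of 1.48 to 2.19, and the 5 strong ones lay at Ier2 (4) and Fos (1). Pileup and fold enrichment over input are the authors' own values per region and are used here only to describe and rank regions within a list.

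**Figure D1:**
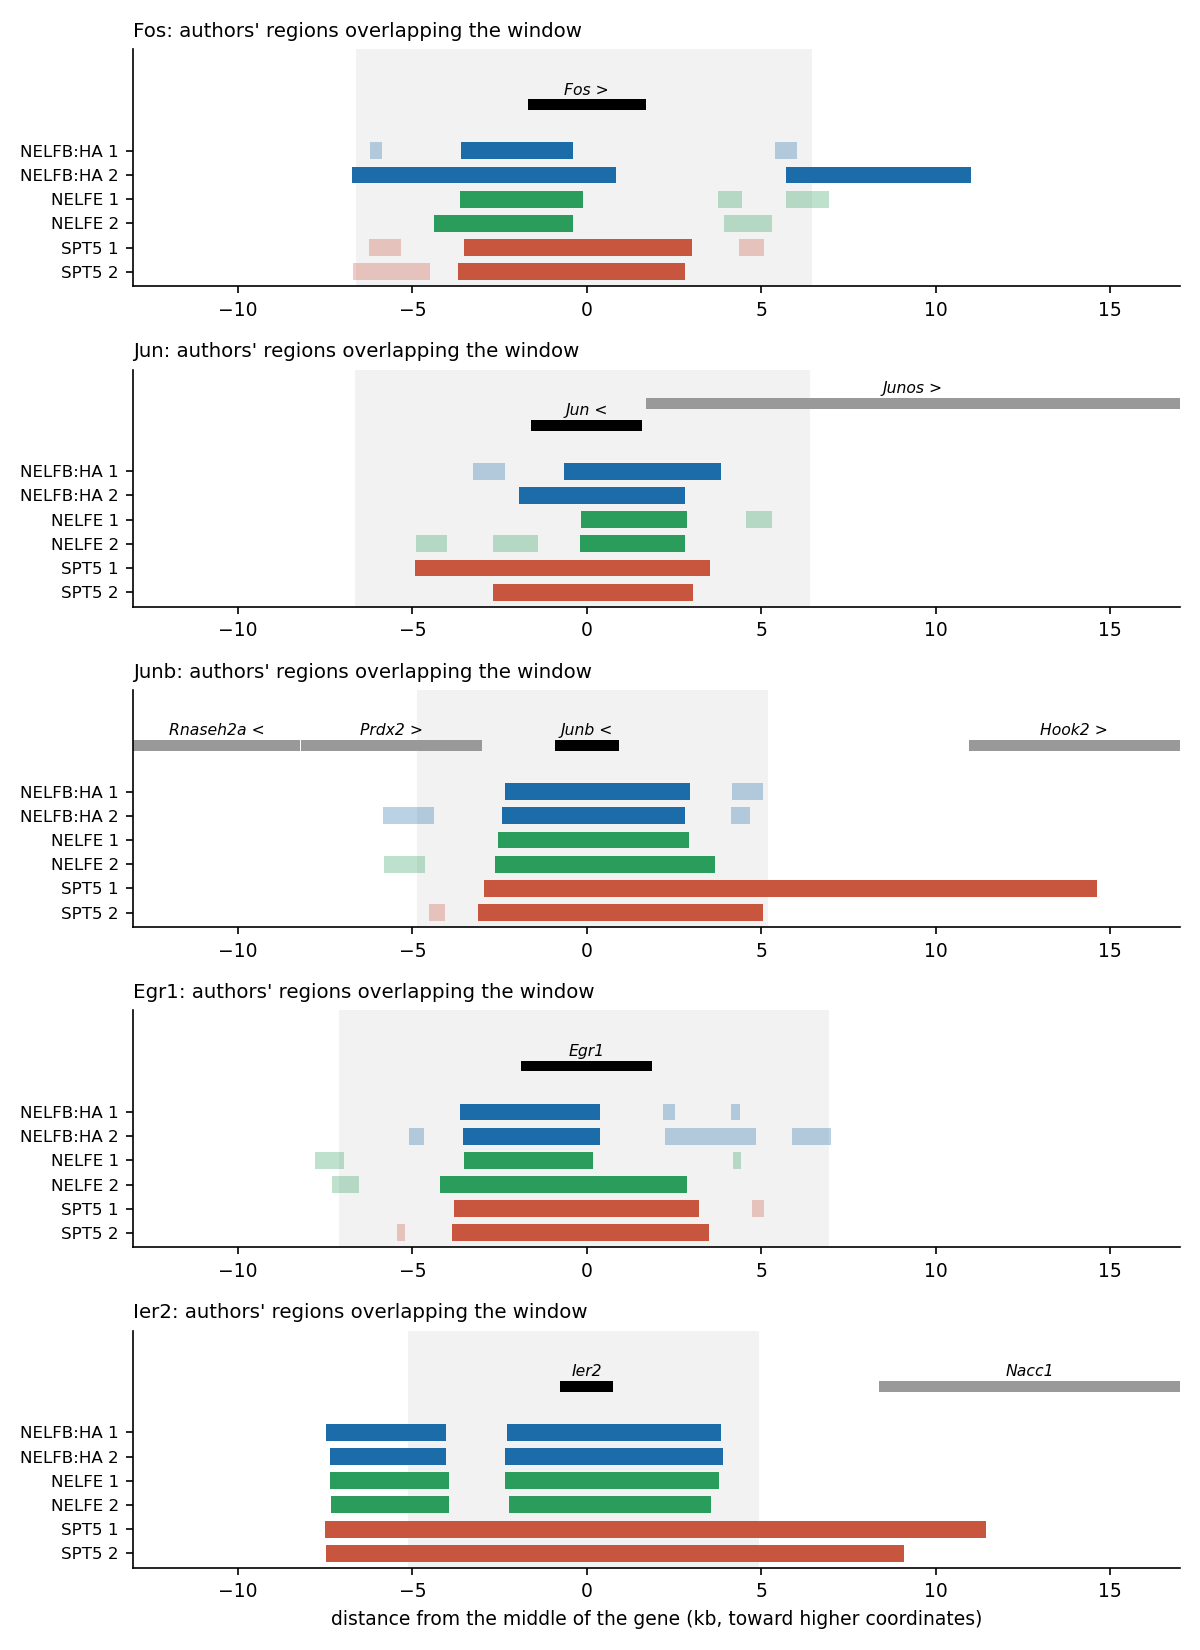
Rows of the 6 lists that overlap each window, 1 panel per gene, drawn to scale in kb from the middle of the gene toward higher coordinates, with colour for the antibody and pale bars for rows above a q of 0.01. Annotated genes are drawn above the bars, and grey shading marks the window. At Ier2 the SPT5 bars run past both ends of the gene and join what are 2 strong bars in each NELF list.

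Fos encodes the AP-1 subunit that pairs with JUN proteins. The gene lies on chromosome 12 from 85473890 to 85477274 on the plus strand. The NELFB:HA lead regions ran from 85471972 to 85475195 (3224 bp, fold 6.62, rank 1227 by pileup) and from 85468852 to 85476410 (7559 bp, fold 4.71, rank 2228). The NELFE regions ran from 85471943 to 85475459 (3517 bp, fold 8.07, rank 1933) and from 85471196 to 85475189 (3994 bp, fold 7.99, rank 1634). The SPT5 regions ran from 85472048 to 85478610 (6563 bp, fold 3.26, rank 2677) and from 85471900 to 85478404 (6505 bp, fold 2.91, rank 3661). The longest Fos region was thus in NELFB:HA replicate 2, and the antibodies overlapped in length. They did not overlap in where the region ended: the 4 NELF regions stopped inside the gene and covered 38.4% to 74.5% of it, and both SPT5 regions covered 100% of it. Distances could be measured for 3592 protein-coding genes. At 25.3% of these, both SPT5 regions reached farther downstream than all 4 NELF regions. NELFB:HA replicate 2 began 5038 bp upstream of the gene start, against 1918 bp in replicate 1. Its list also held a second strong row that crossed the window edge (85481304 to 85486592, fold 3.24). Strong rows overlapping this stretch, but starting past the edge, were in NELFB:HA replicate 1, both NELFE lists and SPT5 replicate 2. The second row is therefore set apart by the window edge, and is not particular to NELFB:HA replicate 2.

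Jun encodes the central AP-1 subunit. The gene lies on chromosome 4 from 95049036 to 95052222 on the minus strand, so its start is at the higher coordinate, and the long noncoding gene Junos starts at 95052317 and runs the other way. The libraries are not stranded, so binding at the Jun start and at the Junos start cannot be told apart. The NELFB:HA lead regions ran from 95049961 to 95054488 (4528 bp, fold 7.43, rank 2427) and from 95048680 to 95053443 (4764 bp, fold 6.15, rank 1921). The NELFE regions ran from 95050467 to 95053486 (3020 bp, fold 7.23, rank 1814) and from 95050423 to 95053444 (3022 bp, fold 6.89, rank 2408). The SPT5 regions ran from 95045709 to 95054155 (8447 bp, fold 3.58, rank 3769) and from 95047924 to 95053680 (5757 bp, fold 3.40, rank 3986). The 3 antibodies formed separate ranges at Jun, with NELFE shortest, NELFB:HA between and SPT5 longest. How many other features share this order of all 3 was not counted. The NELFE regions covered 55.1% and 56.5% of the gene, the NELFB:HA regions 71.0% and 100%, and both SPT5 regions 100%.

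Junb encodes an AP-1 subunit related to JUN. The gene, on chromosome 8 from 84976909 to 84978748 on the minus strand, was spanned whole by the lead region in all 6 lists. The NELFB:HA lead regions ran from 84975468 to 84980788 (5321 bp, fold 8.09, rank 744) and from 84975385 to 84980645 (5261 bp, fold 6.47, rank 507). The NELFE regions ran from 84975293 to 84980752 (5460 bp, fold 7.94, rank 1175) and from 84975202 to 84981495 (6294 bp, fold 9.30, rank 661). The SPT5 regions ran from 84974877 to 84992468 (17592 bp, fold 4.51, rank 733) and from 84974705 to 84982872 (8168 bp, fold 4.69, rank 327). Both SPT5 regions were longer than every NELF region, but they differed widely from each other. In SPT5 replicate 1 the region ran on into the neighbouring gene Hook2 (84988776 to 85003352), where SPT5 replicate 2 had a separate region from 84984115 to 84992194. Every NELF list also had a separate strong row over the Hook2 start. Its fold was 7.04 and 3.18 in the NELFB:HA lists and 6.93 and 6.86 in the NELFE lists. The length in SPT5 replicate 1 therefore includes the Hook2 start. The SPT5 replicate 2 region also touched the end of Prdx2 (84969622 to 84974811) on the other side.

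Egr1 encodes a zinc-finger factor induced by serum. The gene lies on chromosome 18 from 34861207 to 34864956. The NELFB:HA lead regions ran from 34859444 to 34863465 (4022 bp, fold 7.19, rank 837) and from 34859525 to 34863456 (3932 bp, fold 5.70, rank 789). The NELFE regions ran from 34859573 to 34863257 (3685 bp, fold 9.56, rank 734) and from 34858870 to 34865954 (7085 bp, fold 8.17, rank 1379). The SPT5 regions ran from 34859280 to 34866300 (7021 bp, fold 3.13, rank 3604) and from 34859203 to 34866586 (7384 bp, fold 2.87, rank 4743). NELFE replicate 2 stood with the SPT5 libraries and apart from the other 3 NELF libraries. Relative to the gene's higher coordinate end, those 3 regions ended at -1491, -1500 and -1699 bp and covered 54.7% to 60.2% of the gene. The other 3 ran 998 to 1630 bp past it and covered 100%.

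Ier2 encodes a nuclear protein induced early by serum. The gene is the shortest of the 5, on chromosome 8 from 84661331 to 84662852, and all 6 lead regions spanned it whole. The NELFB:HA lead regions ran from 84659806 to 84665949 (6144 bp, fold 4.68, rank 2181) and from 84659744 to 84665983 (6240 bp, fold 5.18, rank 1788). The NELFE regions ran from 84659743 to 84665868 (6126 bp, fold 7.06, rank 2407) and from 84659866 to 84665661 (5796 bp, fold 7.90, rank 1913). The SPT5 regions ran from 84654571 to 84673539 (18969 bp, fold 4.53, rank 1144) and from 84654612 to 84671178 (16567 bp, fold 4.40, rank 1128). The 4 NELF lengths lay close together, and both SPT5 regions were more than 2 times as long. All 4 NELF lists held a second strong row at the lower edge of the window, for example from 84654612 to 84658060 with a fold of 3.85 in NELFB:HA replicate 1. In both SPT5 lists this stretch and the Ier2 region were 1 region, which also reached into Nacc1 (84670477 to 84687862).

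**Figure D2:**
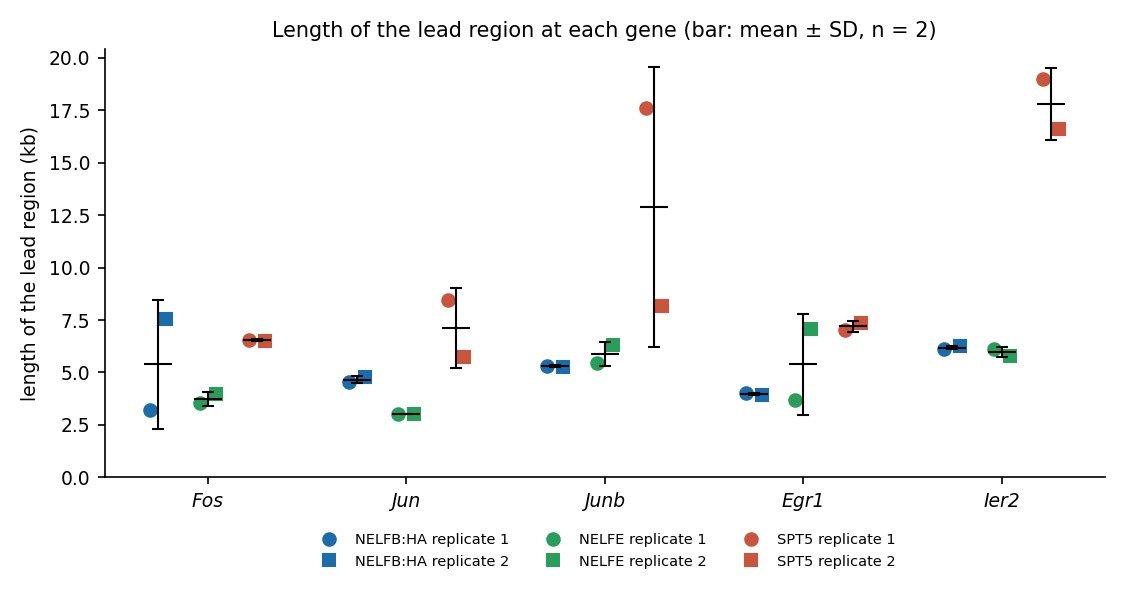
Length of the lead region in kb (linear axis from 0) at the 5 genes, 1 point per library, with the mean ± SD of the 2 libraries of each antibody as a bar. The SPT5 points lie above all NELF points at Jun, Junb and Ier2, and overlap them at Fos and Egr1.

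Mean lengths were longest with SPT5 at all 5 genes. They were 6534 ± 41.0 bp at Fos, 7102 ± 1902 bp at Jun, 12880 ± 6664 bp at Junb, 7202 ± 257 bp at Egr1 and 17768 ± 1698 bp at Ier2 (SD, n = 2). With NELFB:HA they were 5392 ± 3065, 4646 ± 167, 5291 ± 42.4, 3977 ± 63.6 and 6192 ± 67.9 bp in the same order of genes. With NELFE they were 3756 ± 337, 3021 ± 1.41, 5877 ± 590, 5385 ± 2404 and 5961 ± 233 bp. The widest spread was between the SPT5 libraries at Junb, where 1 region takes in Hook2. The share of features with the longest mean in SPT5 was not counted. Over the 5864 features tested below, SPT5 regions were longer in the median as well. The median log2 difference was -0.46 for NELFE minus SPT5 and -0.25 for NELFB:HA minus SPT5.

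Both SPT5 lengths lay above all 4 NELF lengths at 3 of the 5 genes, Jun, Junb and Ier2. The same held at 23.9% of the 5864 features tested, the 5 windows and all other merged regions with a row at a q of 0.01 or less in every list. Between the NELF subunits, NELFB:HA was above NELFE without overlap at Jun and Ier2 (25.1% of features), and NELFE above NELFB:HA at Junb (10.8%). With 5 genes these counts are descriptions.

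None of the 5 genes passed the test of length, limma on log2 length with Benjamini-Hochberg adjustment over the 5864 features. Ier2 came closest: NELFE minus SPT5 was -1.57 (SE 0.54, limma adjusted p = 0.136) and NELFB:HA minus SPT5 was -1.52 (SE 0.54, limma adjusted p = 0.172), a negative value meaning a longer SPT5 region. When the lengths of all strong rows in the window were summed, so that both NELF rows counted, the Ier2 values were -0.92 (limma adjusted p = 0.380) and -0.89 (limma adjusted p = 0.408). Jun had the next lowest adjusted p against NELFE, at -1.21 (SE 0.55, limma adjusted p = 0.272), and Junb had -1.18 against NELFB:HA (SE 0.59, limma adjusted p = 0.325), which was -0.63 without SPT5 replicate 1, whose region takes in Hook2, and -1.73 without SPT5 replicate 2. Fos had -0.80 against NELFE and -0.40 against NELFB:HA, and Egr1 had -0.49 and -0.86. The Egr1 value against NELFE rested on the choice of library, at -0.02 without NELFE replicate 1 and -0.97 without NELFE replicate 2. The Fos value against NELFB:HA was -0.02 with summed lengths and 0.21 without NELFB:HA replicate 1. The summed value rests on the window edge. It counts in full the NELFB:HA replicate 2 row that crosses the edge and leaves out strong rows of other lists that start past it. The median over the 5 genes was -1.03 for NELFE minus SPT5 and -0.86 for NELFB:HA minus SPT5, and over all features -0.46 and -0.25. The all-feature median against NELFB:HA was -0.10 without SPT5 replicate 1 and -0.41 without SPT5 replicate 2. Of all features, 3.22% and 2.11% passed in these 2 comparisons, in either direction.

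NELFB:HA and NELFE are subunits of 1 complex, and their region lengths differed by 0.06 at Ier2, 0.62 at Jun, 0.40 at Fos, -0.15 at Junb and -0.36 at Egr1 (NELFB:HA minus NELFE, log2, SE 0.54 to 0.60). The limma adjusted p was 0.914 or more at each gene, and 0% of all features passed, with 343 of 5864 at an unadjusted p under 0.05. With standard errors of this size the data cannot show that the lengths are alike. An exact two-sided permutation test of 2 libraries against 2 cannot go below 0.333, the value it gave for 11 of the 15 comparisons of a gene.

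Data were simulated around the real mean lengths, with a common spread for all features and no general shift between antibodies. In them, 2 of 200 features changed 2-fold and 50 of 200 changed 4-fold were called for NELFE minus SPT5. At this number of libraries a change of that size was usually missed in the simulated data. The real features differ in spread, so the rates for them may be other. Ier2 was the only one of the 5 called when length was tested in bp in place of log2, at -11580 bp against NELFB:HA (limma adjusted p = 0.00211) and -11810 bp against NELFE (limma adjusted p = 0.00194). On the bp scale 6.75% and 7.35% of all features passed in these 2 comparisons, more than on the log2 scale.

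Distances from the gene start could be measured for Fos, Jun and Junb. Downstream of the start the Fos region reached 1305 and 2520 bp with NELFB:HA, 1569 and 1299 bp with NELFE, and 4720 and 4514 bp with SPT5. For Jun these distances were 2261 and 3542 bp, 1755 and 1799 bp, and 6513 and 4298 bp. For Junb they were 3280 and 3363 bp, 3455 and 3546 bp, and 3871 and 4043 bp. The SPT5 regions thus reached farther downstream than all NELF regions at all 3 genes, by the least at Junb. The same held at 25.3% of the 3592 protein-coding genes measured.

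Past the gene's end, the SPT5 regions ran on by 1336 and 1130 bp at Fos, 3327 and 1112 bp at Jun and 2032 and 2204 bp at Junb. Of the NELF regions, all 4 at Fos and 3 at Jun stopped before the end. Upstream of the start the antibodies overlapped at Fos (1842 to 5038 bp) and Jun (1221 to 2266 bp). At Junb the upstream reach was 2040, 1897, 2004 and 2747 bp in the NELF libraries and 13720 and 4124 bp with SPT5. This pattern was shared by 12.6% of the same 3592 genes, and it takes in Hook2 in SPT5 replicate 1.

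In the limma fit of downstream reach over 3592 genes, Fos had the largest difference of the 3, with NELFE minus SPT5 at -1.69 (SE 0.64, limma adjusted p = 0.185). Jun had -1.57 (limma adjusted p = 0.212) and Junb -0.18 (limma adjusted p = 0.923). None passed, where 3.95% of genes passed with a longer SPT5 reach. Against NELFB:HA the values were -1.35, -0.90 and -0.25 for Fos, Jun and Junb, none of which passed, where 3.12% of genes did.

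**Figure D3:**
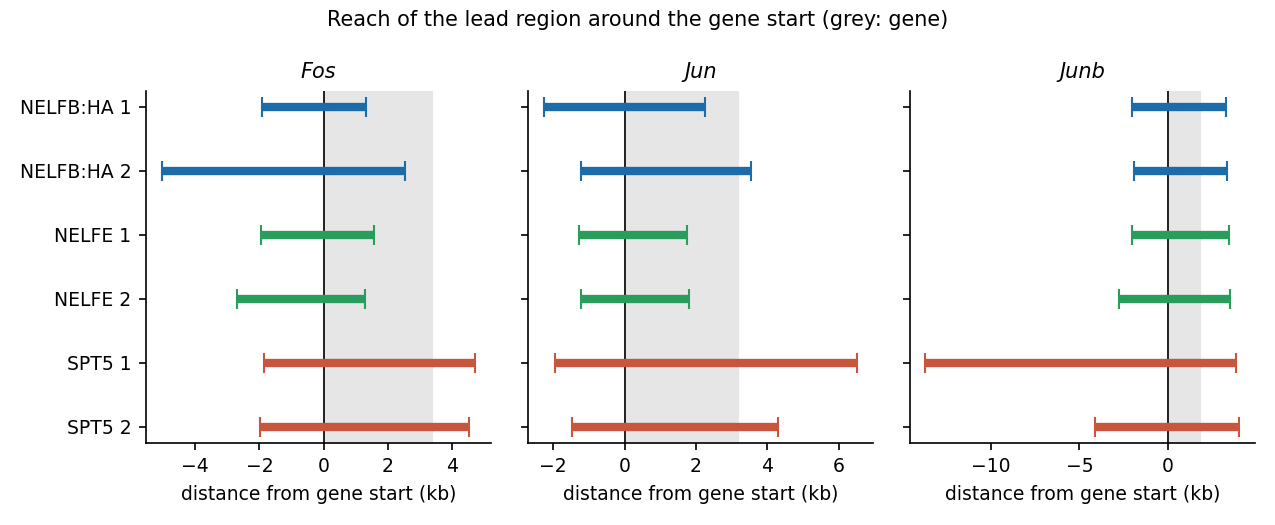
Extent of the lead region around the gene start, in kb, for Fos, Jun and Junb, with 1 line per library and the gene in grey. The downstream ends with SPT5 lie beyond those of all 4 NELF libraries at each gene, by the least at Junb.

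All 5 genes are short, with Egr1 the longest at 3750 bp. Among 585 fitted genes of at most that length, the lead region spanned the whole gene in both libraries at 39.8% with SPT5, 14.0% with NELFB:HA and 11.5% with NELFE. With SPT5 this held for 5 of the 5 immediate-early genes, and with each NELF antibody for 2, Junb and Ier2. Rows at a q of 0.01 or less covered on average 69.4% and 65.7% of the 5 windows with SPT5, against 42.7% and 50.5% with NELFB:HA and 40.7% and 47.4% with NELFE. The whole Ier2 window was covered in both SPT5 lists. Cover was not measured for windows of other genes, so these values are not shown to be particular to the 5.

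By pileup, the lead regions were ranked within their list, each being by choice the row of its window with the highest pileup. Their lead regions stood in the top 0.113% to 3.46% of all rows, with a median of 0.607% over the 30, and in the top 3.83% to 55.4% of the rows at a q of 0.01 or less (median 16.1%). Most rows of a list are weak, so the second measure is the stricter one. Its median was 16.6% with NELFB:HA, 15.0% with NELFE and 40.0% with SPT5, and the lowest place was that of Egr1 in SPT5 replicate 2, at 55.4%. Lists differ in length, so that ranks show no change between them. Junb was first of the 5 by pileup in 5 of 6 lists, and Egr1 in NELFE replicate 1. Egr1 took place 1 or 2 in the 4 NELF lists and place 4 or 5 in the SPT5 lists, and Ier2 took places 3 to 5 in the NELF lists and place 2 in both SPT5 lists. For Egr1, the pileup was 68.89 and 49.17 with NELFB:HA, 74.55 and 59.93 with NELFE, and 19.25 and 30.01 with SPT5. For Ier2 it was 50.03 and 37.07, 51.43 and 53.26, and 27.32 and 46.10. Egr1 was thus above Ier2 in all 4 NELF lists and below it in both SPT5 lists. This change of order was not tested.

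**Figure D4:**
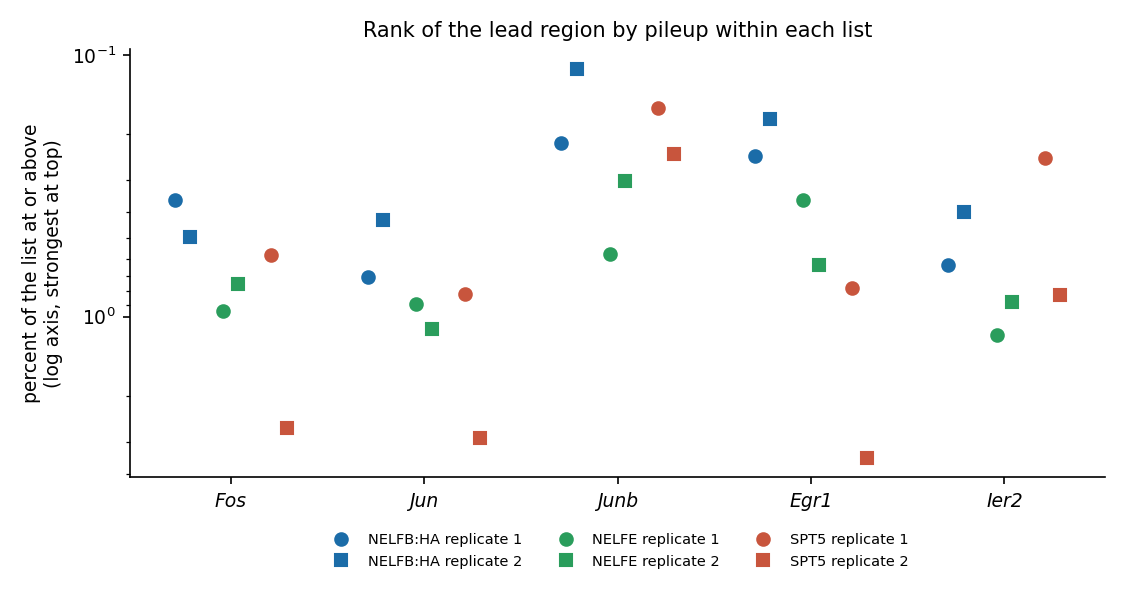
Percent of the rows of a list with a pileup at or above that of the lead region (log axis, strongest at the top) for the 5 genes, 1 point per library. Junb is the highest of the 5 in 5 of 6 lists, and Egr1 lies above Ier2 in the NELF lists and below it in the SPT5 lists.

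A list of 46 other immediate-early and serum-response genes was set beside the 5. All 46 were in the annotation and 35 had a lead region at a q of 0.01 or less in all 6 lists, as did 32.5% of all protein-coding genes. The 11 that did not were Fosl1, Egr2, Egr3, Egr4, Atf3, Dusp2, Dusp4, Nr4a1, Csrnp1, Per1 and Npas4. Both SPT5 lengths lay above all 4 NELF lengths at 18 of the 35 (51.4%), where 25.7% of 7106 protein-coding genes did. Windows of 2505 of these genes had the same 6 lead lengths as another gene, since neighbours share regions.

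Against NELFE, 4 of the 35 had longer SPT5 regions by limma and none had shorter ones, where 5.07% of genes passed as longer. Against NELFB:HA it was 1 of 35, Btg1, where 3.03% passed. These 4 genes were chosen for naming after their values were seen. Btg1, an antiproliferative gene, had lengths of 2170, 3882, 2581 and 3022 bp in the NELF libraries and 25803 and 18338 bp with SPT5. Mcl1, which protects cells from apoptosis, had 3173, 6003, 2800 and 4771 bp against 22712 and 21276 bp. Sgk1, a serum-induced kinase gene, had 4447, 4010, 4806 and 3889 bp against 20636 and 18755 bp.

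At these 3 genes the SPT5 lengths lay far above all NELF lengths. Whether their SPT5 regions join stretches that are separate in the NELF lists, as at Ier2, was not examined. Fosb, an AP-1 subunit gene related to Fos, had 4316 and 3047 bp with NELFB:HA, 820 and 563 bp with NELFE, and 5436 and 2838 bp with SPT5. There SPT5 overlapped NELFB:HA but not NELFE. NELFE minus SPT5 was -2.96 for Btg1 (limma adjusted p = 0.0225), -2.59 for Mcl1 (limma adjusted p = 0.0358), -2.53 for Fosb (limma adjusted p = 0.0392) and -2.19 for Sgk1 (limma adjusted p = 0.0456). The median over the 35 was -0.92 for NELFE minus SPT5, -0.71 for NELFB:HA minus SPT5 and 0.07 for NELFB:HA minus NELFE, and over all 7106 genes -0.51, -0.29 and 0.22. Downstream reach was farthest with SPT5, with no overlap, at 10 of the 18 genes of the list that could be measured (25.3% of 3592 genes), and upstream reach at 2 of 18 (12.6%).

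**Figure D5:**
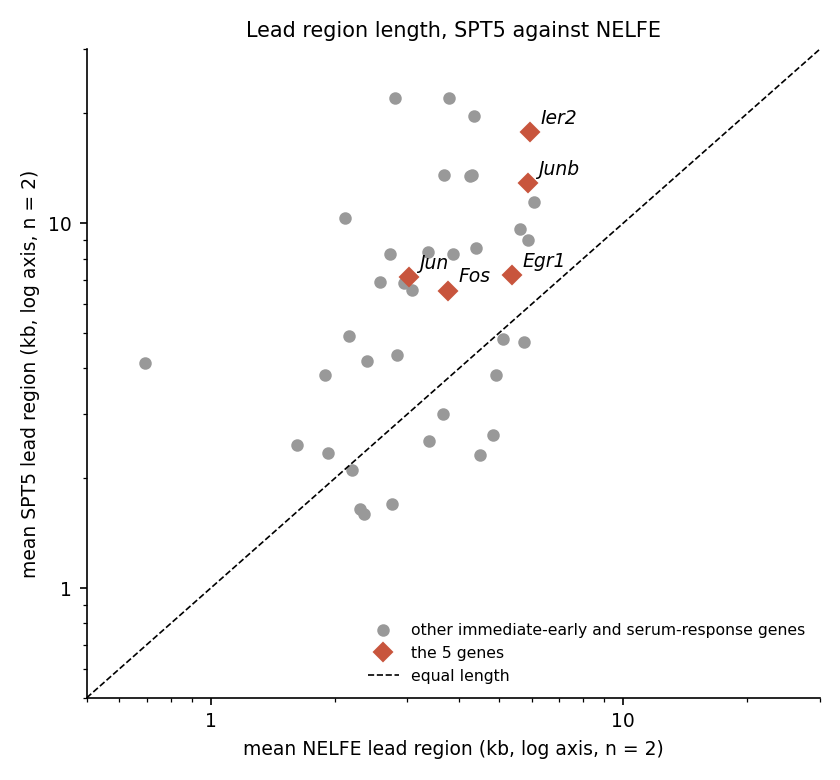
Mean lead-region length with SPT5 against that with NELFE (kb, both axes log, n = 2 each) for the 5 genes (diamonds) and the 35 other immediate-early and serum-response genes (circles), with a dashed line at equal length. All 5 diamonds lie above the line. Over all 7106 protein-coding genes fitted, the median log2 difference (NELFE minus SPT5) was -0.51, on the same side.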

How the data were processed

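The 6 control ChIP-seq libraries analysed, 2 each for NELFB:HA, NELFE and SPT5, had broad peak lists called per library, not pooled, with MACS 2.1.1.20160309, per the file headers. Bowtie2, deepTools and build mm10 are named in the submitters' processing notes. The headers give broad linking of strong (p 0.01) and weak (p 0.1) regions and 1 tag kept per position. The run names in the headers of the NELF lists carry other replicate numbers than the titles; titles were followed. The deposited columns used were length in bp, pileup (signal, the authors' fragment coverage), fold enrichment over input (a ratio, made by the authors) and −log10 p and −log10 q, deposited in the lists although the headers state that q would not be calculated. Per the file headers, each NELF library had its own input and the SPT5 libraries shared 1.

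Computed here: the lead region per window, its rank, and limma 3.58.1 (R 4.3.3) on log2 length, with no pseudocount, over all features with a row at q of 0.01 or less in all 6 lists. Antibodies shared 1 estimate of the spread. Other genes used windows of 4 kb either side. Gene positions came from RefSeq (GRCm38.p6). All 5 genes are named with all their lead regions. The members and lists were chosen with earlier results of these data known. The fit was tested on simulated data. Alternatives tried were the lead-region rule, q, length scale, windows changed by 2 kb, a replicate block, all genes as features (added after seeing the data) and leaving out each library.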

Additional observations from a re-analysis of the deposited data

How the results depend on the processing

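None of the 5 genes was called under any alternative except Ier2, called when length was tested in bp: 1 gene for NELFB:HA minus SPT5 and 1 for NELFE minus SPT5, against 0 on the log2 scale; on the bp scale 396 and 431 of 5864 features were called. Of 210 alternative values for single genes, 2 gained a call, 3 changed sign, all 3 on leaving out a library, and 205 did neither. The cause was not tested. No gene was called in the main fit, so the 205 only stayed uncalled. Many of them could not change direction. The exact test, a replicate block and leaving out a library of the antibody not compared all keep the difference as it was. Fos, NELFB:HA minus NELFE, ran from -0.22 without NELFB:HA replicate 2 to 1.01 without NELFB:HA replicate 1. Fos, NELFB:HA minus SPT5, ran from -1.02 without NELFB:HA replicate 2 to 0.21 without NELFB:HA replicate 1. Egr1, NELFB:HA minus NELFE, ran from -0.83 without NELFE replicate 1 to 0.11 without NELFE replicate 2. Ranked among rows at q of 0.01 or less, the median place of the lead regions was 16.1% in place of 0.607%, since fewer rows are counted. With all rows, the windows were covered to 53.4% (NELFB:HA), 49.3% (NELFE) and 71.3% (SPT5), against 46.6%, 44.1% and 67.5%. All 30 lead regions were the same with windows changed by 2 kb. On log2, 124 features were called for NELFB:HA minus SPT5 and 189 for NELFE minus SPT5; alternatives gave 56 to 396 and 92 to 431, the highest on the bp scale, and leaving out 1 library gave 0 and 0 to 97. With a replicate block 57 and 92 were called, and no immediate-early gene. Between antibodies, the replicate 1 minus 2 differences in log2 length had r of -0.00993, -0.00775 and -0.0239 across 5864 features. This cannot show whether libraries of 1 number share an origin. A shift common to all features does not enter r, and the NELF run names carry other replicate numbers than the titles. With 2 libraries an antibody, changes of 4-fold were mostly missed in simulated data.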
